A study of Mus musculus with 12 samples.

Results

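The results concern the difference between IRAK4 kinase-dead and wild-type mouse embryonic fibroblasts (MEFs) in their change of expression after 4 h of interleukin-1 beta (IL-1b). For each gene the response of kinase-dead cells (IL-1b for 4 h minus unstimulated) was taken, and the response of wild-type cells was subtracted from it, on the scale log2(signal + 8). The result is called the response difference here. A negative value means a smaller rise, or a larger fall, in kinase-dead cells. It rests on 8 of the 12 arrays, and 12456 of the 18193 genes named by the array were bright enough to be tested.

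Interleukin-1 is a pro-inflammatory cytokine. Its receptor recruits the adaptor MyD88 and the protein kinase IRAK4, which pass the signal to IRAK1, TRAF6 and TAK1 and from there to NF-kB and the MAP kinases. Fibroblasts answer with chemokines that attract leukocytes, with cytokines such as interleukin-6, with matrix-degrading enzymes and with inhibitors that limit the NF-kB signal.

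MEFs are fibroblasts grown from mouse embryos. Kinase-dead MEFs (labelled IRAK4-KD) received mouse IL-1b at 1 ng/ml over 4 h or were grown for 4 h without stimulation, and wild-type MEFs were treated in the same 2 ways, with 2 arrays in each of the 4 groups. The other 4 arrays, at 1 h of IL-1b, entered the estimate of the spread and are compared at the end. The culture medium was DMEM with foetal calf serum for all groups. No source used here gives the strain background, the age of the embryos or the form of the kinase-dead allele, and the Irak4 transcript was not analysed here. Replicates are described as biological, but neither animals nor cultures are named, so the p-values measure the spread between these samples. For wild-type unstimulated replicate 1 the title lacks a genotype, and the series design placed it.

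The median signal of an array was 23 to 28.3, and correlations of log2 signals were 0.967 to 0.9745 within groups and 0.941 to 0.973 between groups. Precision is limited by the number of arrays. RNA quality was read from the ratio of the 3' to the 5' actin probe set, which was 2.49 ± 0.0905 in kinase-dead cells at 4 h and 2.85 ± 0.0177 in unstimulated kinase-dead cells, against 2.36 ± 0.303 in wild-type cells at 4 h and 2.41 ± 0.385 in unstimulated wild-type cells (SD, n = 2 each). All 12 fibroblast markers on the list were measured. Their summed signal was 32510 to 33610 in kinase-dead cells at 4 h and 33730 to 34090 without stimulation. In wild-type cells it was 36420 to 38560 at 4 h and 32970 to 37280 without stimulation. The bright Col1a1, Col1a2, Col3a1, Fn1 and Vim carry most of this sum. Without stimulation 4 of the 12 were called lower in kinase-dead than in wild-type cells, and 0 higher. Over all genes the shares were 6.96% lower and 7.38% higher. Pdgfra averaged 131.8 in unstimulated kinase-dead and 583.5 in unstimulated wild-type cells, and Lum 64.4 and 362.8. The summed signal of 18 macrophage markers was 1672 to 1818 in kinase-dead cells at 4 h and 1722 to 1826 without stimulation, against 802.1 to 868.2 in wild-type cells at 4 h and 773.4 to 801.1 without stimulation. It thus differed between the genotypes but little with stimulation. In the response difference 0 of the 15 tested macrophage markers were called, against 3.03% over all genes, so 0 calls do not set these markers apart. Itgam, Cd14 and C1qc of the 18 were too dim to be tested. The brightest at 4 h of IL-1b, Lyz1, averaged 614.1 in kinase-dead and 186.2 in wild-type cells, and Lyz2 averaged 245.2 and 105.6. These carried most of the gap in the sum. Fcgr1, Cd14 and Itgam averaged lower in kinase-dead than in wild-type cells at 4 h, and the rest averaged higher. The summed signal of 10 neural markers at 4 h was 783.4 to 806.2 in kinase-dead and 423.9 to 502.4 in wild-type cells. Without stimulation it was 701.5 to 744.2 in kinase-dead and 502.6 to 507.8 in wild-type cells. Most of the gap at 4 h was Fabp7, at 254.9 in kinase-dead and 36.25 in wild-type cells, and Sox2, at 124.8 and 41.35. Map2, Gfap, Pax6, Sox10 and Dcx averaged lower in kinase-dead than in wild-type cells at 4 h. Whether these transcripts came from macrophages or neural cells, and their part in the results, was not tested. In such bulk samples fewer cells of a type and less RNA per cell cannot be told apart.

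The 4 h response had more called genes in wild-type than in kinase-dead cells. In kinase-dead cells 77 genes passed the test (limma's moderated test, Benjamini-Hochberg adjusted p under 0.05, called here; 0.618% of those tested), 55 of them higher (0.442%) and 22 lower (0.177%). Wild-type cells had 1501 called genes (12.1%), of which 581 were higher (4.66%) and 920 lower (7.39%). The kinase-dead count was 28 and 30 without kinase-dead 4 h replicate 1 and replicate 2, and 316 without either wild-type unstimulated array. The wild-type count was 962 without wild-type 4 h replicate 2, and with arrays centred on their medians its split turned to 805 higher and 491 lower. The response difference itself was called for 377 genes (3.03%), with 181 higher (1.45%) and 196 lower (1.57%) in kinase-dead cells, and 202 of them differed at least 2-fold. For all 377 the array-pair responses of the genotypes did not overlap, which was the case for 3721 of all genes tested (29.9%). An unadjusted p under 0.05 was reached by 2102 genes for the response difference. For the kinase-dead and wild-type responses it was reached by 1700 and 3267 genes, which lie closer in proportion than the called counts. The count depended on single arrays: it was 216 and 217 without kinase-dead 4 h replicate 1 and replicate 2, 227 without kinase-dead unstimulated replicate 2 and 719 without wild-type unstimulated replicate 1, and 349 of the 377 were among the 719. The median response difference over all genes tested was 0.10 on the log2 scale. Centring each array on its median moved this median to 0, and the split became 115 higher and 264 lower. Between the genotypes themselves, 2866 genes differed with IL-1b at 4 h (23%), 1716 of them higher (13.8%) and 1150 lower (9.23%) in kinase-dead cells, and 1786 differed without stimulation (14.3%), 919 of them higher (7.38%) and 867 lower (6.96%). Centring turned the split with IL-1b to 1208 higher and 1452 lower. Without a trend of the variance with signal, 156 response differences were called. With only the 8 arrays in the fit, 258 were called, 105 of them higher and 153 lower.

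**Figure D1:**
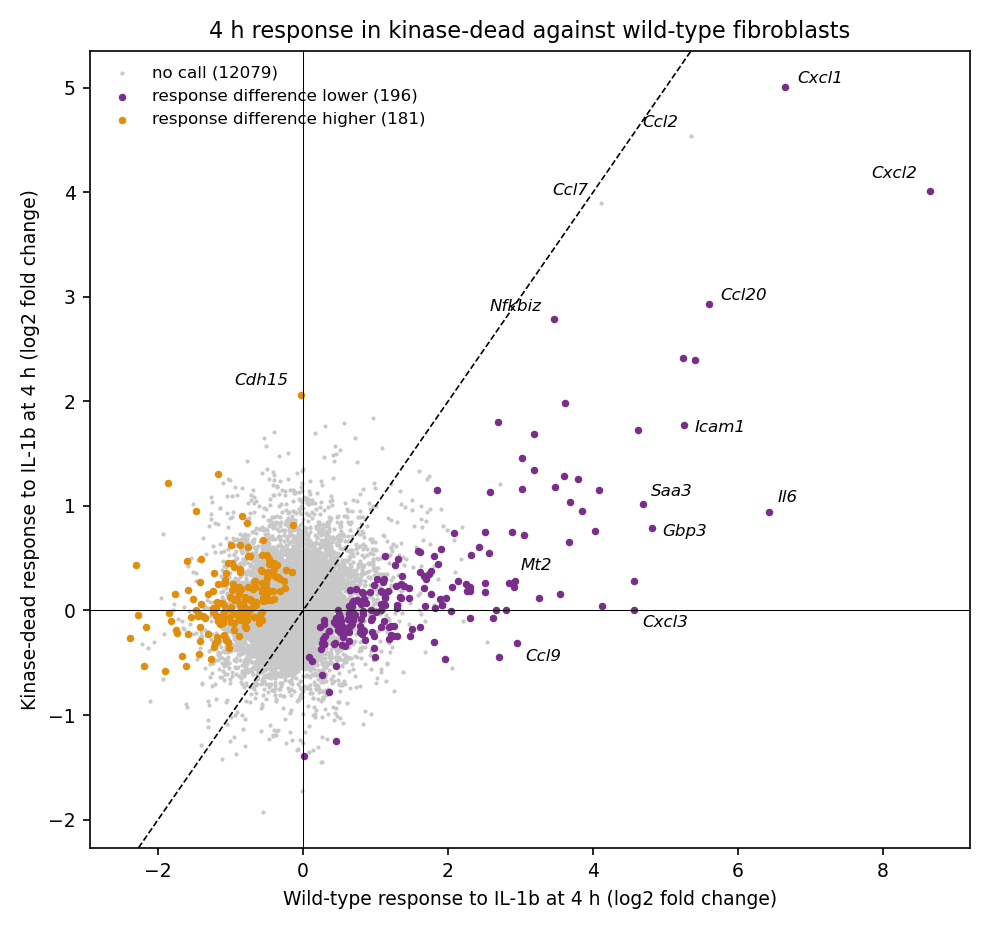
Response to 4 h of IL-1b in kinase-dead cells (vertical axis) against wild-type cells (horizontal axis), both as log2 fold change of signal + 8, with 1 point per gene tested (n = 12456) and the dashed line marking equal responses. Of the 196 genes with a lower response difference, 162 rose in wild-type cells with no call in kinase-dead cells, and 23 rose in both. Ccl2 and Ccl7, which were not called, lie near the line of equality.

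The calls were then set beside each genotype's own response. These comparisons share arrays, so the counts are a description. Of the 196 genes with a lower response difference, 185 were genes that rose in wild-type cells, and 23 of those also rose in kinase-dead cells. Of the 181 genes with a higher response difference, 165 were genes that fell in wild-type cells with no call in kinase-dead cells, 14 had no call in either genotype and 2 rose in kinase-dead cells alone among the calls. The responses of the genotypes themselves rest on separate arrays. The 195 and 176 genes below were, however, chosen by a called wild-type response of at least 2-fold. That choice favours a smaller response in kinase-dead cells. Among 195 genes that rose at least 2-fold in wild-type cells, the median response on the log2 scale was 0.30 in kinase-dead and 1.66 in wild-type cells. The kinase-dead response was under 0.25 of the wild-type one for 117 of these genes, between 0.25 and 0.5 for 49 and over 0.5 for 29. Of the 195, 33 rose in kinase-dead cells and 0 fell. Among 176 genes that fell at least 2-fold in wild-type cells, the median response was -0.13 in kinase-dead cells and -1.23 in wild-type cells, and 0 of the 176 were called in kinase-dead cells. Of the 55 genes that rose in kinase-dead cells, 41 also rose in wild-type cells, which is 41 of the 581 wild-type rises. Of the 22 genes that fell in kinase-dead cells, 1 fell in wild-type cells.

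Chemokines that attract neutrophils had some of the most negative response differences. Of 7 listed CXC genes, 6 were tested, 4 had a lower response difference and 0 a higher one. The list median was -2.24 against 0.10 over all genes. The counts of this and every later list stand against 1.57% lower and 1.45% higher over all genes. In a short list 1 call is no result about the list. Cxcl2 had signals of 142.8 and 129.3 in kinase-dead cells at 4 h and 1.1 and 0.7 without stimulation, against 5061.1 and 4308.3 in wild-type cells at 4 h and 2.7 and 4.7 without stimulation. Both genotypes thus raised Cxcl2 beyond the spread of the arrays, and the stimulated groups did not overlap. Its response was 4.02 in kinase-dead and 8.65 in wild-type cells (log2), a difference of -4.63 ± 0.23 (SE, adjusted p = 5.3e-09). Cxcl1 read 855.4 and 720.3 in kinase-dead cells at 4 h and 22.8 and 11.7 unstimulated, against 6313.7 and 5983.7 in wild-type cells at 4 h and 68.5 and 41 unstimulated. Here the kinase-dead response was large too, at 5.01 against 6.65 in wild-type cells, and the difference of -1.64 ± 0.35 was called (adjusted p = 0.014). That call was lost without wild-type 4 h replicate 1, kinase-dead unstimulated replicate 1 or kinase-dead 4 h replicate 2, where the adjusted p reached at most 0.0797, while the other Cxcl1 probe sets gave -2.24 and -1.87 and were called. Cxcl3 stayed at 5.9 and 8.3 in stimulated kinase-dead cells and 8.6 and 5.6 in unstimulated ones, against 469.5 and 566.9 in stimulated and 13 and 15.1 in unstimulated wild-type cells. No rise of Cxcl3 was detectable in kinase-dead cells, and its response difference was -4.57 (adjusted p = 0.00017). Its probe set passed the filter through wild-type arrays alone, and its kinase-dead signals were near the pseudocount. Under other settings the difference was -4.85 to -3.57. Cxcl5, which started lower in kinase-dead cells (0.8 and 10.2, against 104.6 and 136.3 in wild-type cells), rose by 2.41 in kinase-dead and by 5.25 in wild-type cells.

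The CC chemokines were split. Of 15 listed genes 10 were tested, and Ccl5, Ccl9, Ccl11 and Ccl20 had a lower response difference, 0 had a higher one, and the median was -1.01. Ccl2, the main attractant of monocytes, had signals of 1498.1 and 1499.9 in kinase-dead cells at 4 h and 60.6 and 53 unstimulated, against 7026.3 and 6411.8 in wild-type cells at 4 h and 120.8 and 202.5 unstimulated. It was lower in kinase-dead cells both before and after stimulation, with no overlap of arrays. Its response of 4.54 in kinase-dead and 5.35 in wild-type cells gave a difference of -0.81 with a 95% interval of -1.31 to -0.31, which did not pass (adjusted p = 0.079). It passed at -1.16 without wild-type unstimulated replicate 2, at -0.90 and -1.05 with pseudocounts of 16 and 32, and at -0.91 with arrays centred on their medians. Ccl7, a related monocyte attractant, rose by 3.90 in kinase-dead and 4.11 in wild-type cells, and the interval of its difference was -0.69 to 0.26 (adjusted p = 0.68). With a pseudocount of 32 it was called at -0.74. In contrast, Ccl5, which attracts T cells, read 32.1 and 58 in stimulated and 38.3 and 45.6 in unstimulated kinase-dead cells, against 458.6 and 255.2 in stimulated and 21.4 and 5.7 in unstimulated wild-type cells. The stimulated wild-type arrays were far above the rest, and the response difference was -4.08 (adjusted p = 0.00019). Without stimulation Ccl5 was higher in kinase-dead cells by 1.31 (adjusted p = 0.023). At 4 h of IL-1b the kinase-dead minus wild-type difference was -2.77, so part of the response difference lies in the unstimulated cells. Ccl9 differed by -3.27 and the eosinophil attractant Ccl11 by -2.66, with kinase-dead responses of -0.31 and 0.00 that did not pass. The other Ccl9 probe set gave -0.96 with no call, and the mean of both gave -2.11 and was called. Ccl20 rose in both genotypes, by 2.93 in kinase-dead and 5.61 in wild-type cells. Among 6 tested chemokines that attract lymphocytes or sit in the membrane, Cxcl16 (-1.78) and Cx3cl1 (-1.34) were called lower. Cxcl16 and Cx3cl1 were not called with the most variable probe set of each gene.

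**Figure D2:**
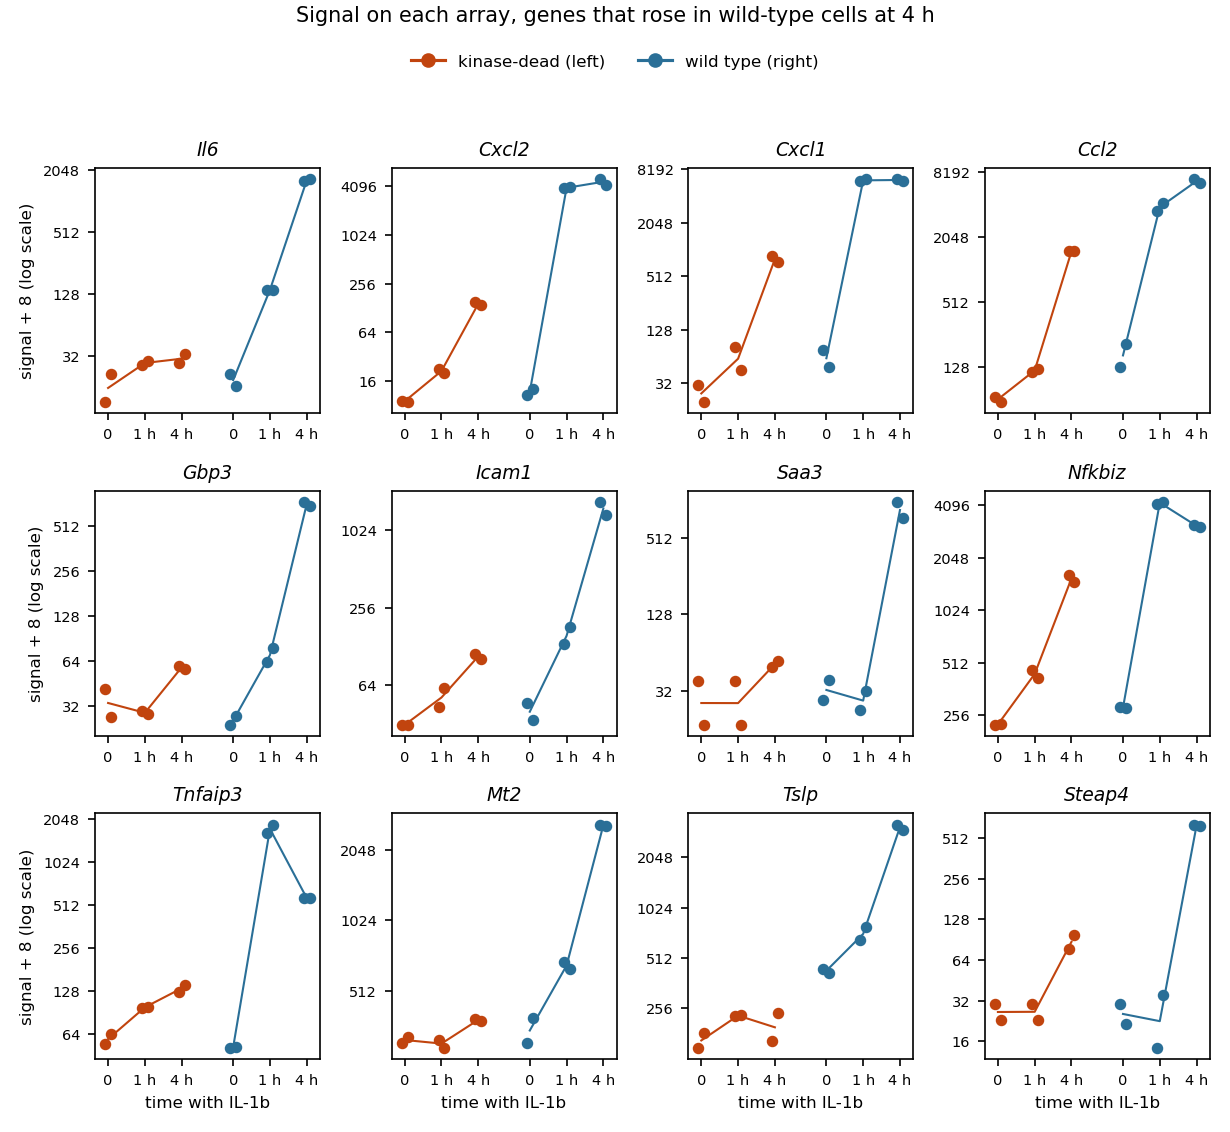
Signal + 8 on each array (log axis) for 12 genes that rose in wild-type cells, unstimulated (0, grown for 4 h) and after 1 h and 4 h of IL-1b, kinase-dead cells at the left of each panel and wild-type cells at the right, with lines through the group means of log2 values (n = 2 arrays a group). Il6, Mt2 and Tslp stay low in kinase-dead cells, whereas Cxcl1, Ccl2 and Nfkbiz climb between 1 h and 4 h.

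The cytokine list held 29 genes, of which 24 were tested, 5 had a lower response difference and 0 a higher one (median -0.31). Il6, encoding the cytokine that drives the acute phase response, had the most negative response difference of all genes tested. Its signals were 19.5 and 25.3 in kinase-dead cells at 4 h and 3.5 and 13.6 unstimulated, against 1566.2 and 1657.5 in wild-type cells at 4 h and 13.5 and 8.4 unstimulated. The kinase-dead arrays at 4 h lay just above the unstimulated ones, and the kinase-dead response of 0.94 did not pass (adjusted p = 0.13). The wild-type response was 6.43, and the difference of -5.49 ± 0.39 was called (adjusted p = 2.9e-07). Lif, a related cytokine, rose in both genotypes, by 1.16 in kinase-dead and 4.08 in wild-type cells. Tslp, an alarmin of barrier tissues, had signals of 155 and 231.3 in stimulated and 141.3 and 174.1 in unstimulated kinase-dead cells, against 3196.9 and 2976.7 in stimulated and 432.5 and 411.3 in unstimulated wild-type cells. The kinase-dead groups overlapped, the wild-type groups did not, and the difference was -2.59 (adjusted p = 2.7e-06). Tnfsf11, the osteoclast factor RANKL, rose by 1.34 in kinase-dead and 3.18 in wild-type cells. The growth factor gene Csf2 differed by -2.64, but its call was lost in 7 of 12 fits that left out 1 array (adjusted p up to 0.131). The Csf2 probe set passed the filter through wild-type arrays alone. Csf1 rose in both genotypes, by 1.00 and 1.63 in kinase-dead and wild-type cells, and its difference of -0.63 was not called.

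Genes of the NF-kB system that feed back on the pathway were among those that kinase-dead cells did raise. Of 18 listed genes 14 were tested, 5 had a lower response difference and 0 a higher one, and 5 rose in kinase-dead and 9 in wild-type cells. Nfkbiz, which encodes the co-activator IkB-zeta, had signals of 1614.5 and 1485 in kinase-dead cells at 4 h and 216.4 and 218.7 unstimulated, against 3146.4 and 3072.4 in wild-type cells at 4 h and 275.3 and 271.9 unstimulated. The stimulated kinase-dead arrays lay far above both unstimulated groups and below the stimulated wild-type arrays. Its response was 2.79 in kinase-dead and 3.47 in wild-type cells, and the difference of -0.68 ± 0.13 was called (adjusted p = 0.0059). The call was at the threshold without kinase-dead 4 h replicate 2 (adjusted p = 0.05002). Its other probe sets gave larger differences of -1.54 and -1.17, both called. Nfkbia, the inhibitor IkB-alpha, rose by 1.15 in kinase-dead and 1.85 in wild-type cells, and its difference of -0.70 was lost in 4 of 12 fits without 1 array, although 3 of its 4 other probe sets were called lower. Tnfaip3 (A20), an ubiquitin-editing inhibitor, read 118.1 and 132.1 in stimulated and 46 and 55.4 in unstimulated kinase-dead cells, against 561.6 and 564.2 in stimulated and 42.9 and 43.8 in unstimulated wild-type cells. Both stimulated groups were above the unstimulated ones, and the difference was -2.29 (adjusted p = 3.9e-06), but a second Tnfaip3 probe set gave -0.30 and no call. Zc3h12a, an RNase that degrades cytokine messages, differed by -3.01 with responses of 2.40 in kinase-dead and 5.41 in wild-type cells, and Nfkbie by -1.62. The other Zc3h12a probe set gave -0.11 with no call, and the mean of both gave -1.56 and was called. For Bcl3 the response was 1.21 in kinase-dead cells, which did not pass, and 1.21 in wild-type cells, which did, and the difference was not called.

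Of 25 listed components of the receptor pathway itself 19 were tested and 0 were called in the response difference, against 3.03% over all genes, with a median of -0.11. Il1r1, the signalling receptor, had signals of 406.5 and 369.9 in stimulated and 210.9 and 203.5 in unstimulated kinase-dead cells, against 1346.4 and 1602.7 in stimulated and 390.7 and 569.8 in unstimulated wild-type cells. It rose by 0.88 in kinase-dead and 1.62 in wild-type cells, and kinase-dead arrays were lower than wild-type arrays in either state. The difference in response was -0.74 with an interval of -1.18 to -0.30 (adjusted p = 0.066), and it was called at -1.01 without wild-type unstimulated replicate 2, at -0.76 with a pseudocount of 32 and at -0.85 with arrays centred on their medians. The kinase gene Map3k8 rose by 2.72 in wild-type cells, with a response difference of -1.50 that did not pass (adjusted p = 0.079). Of 9 tested innate sensors 1 was called, against 3.03% over all genes: Tlr2, the receptor for bacterial lipoproteins, at -3.27. Its signals were 4.1 and 14.9 in stimulated kinase-dead cells and 2.9 and 0.9 in unstimulated ones. In wild-type cells they were 193.4 and 256 in stimulated and 8.1 and 4.5 in unstimulated ones. Of these 8 arrays only the stimulated wild-type ones reached the filter, and the rest were near or below the pseudocount. Under other settings the difference was -3.49 to -2.46.

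The promoters of 4 genes with a lower response difference are shown: Il6 and Cxcl2 with very negative values, Cxcl1 with a large response in both genotypes and Gbp2 from a family described next. They are RefSeq sequences of mouse assembly GRCm38.p6, from 250 bases before to 50 after the start of the gene, on the strand of the gene. Capitals mark matches on either strand to a motif of the NF-kB type, GGG and TTCC with any 3 bases between them, where overlapping matches form 1 run.
Il6, chr5:30012864-30013163, plus strand: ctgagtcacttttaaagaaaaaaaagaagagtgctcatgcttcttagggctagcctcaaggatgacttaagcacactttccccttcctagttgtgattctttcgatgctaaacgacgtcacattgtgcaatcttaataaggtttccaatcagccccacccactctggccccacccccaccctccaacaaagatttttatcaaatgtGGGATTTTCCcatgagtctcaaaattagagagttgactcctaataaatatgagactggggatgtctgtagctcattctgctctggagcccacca
Cxcl2, chr5:90903649-90903948, plus strand: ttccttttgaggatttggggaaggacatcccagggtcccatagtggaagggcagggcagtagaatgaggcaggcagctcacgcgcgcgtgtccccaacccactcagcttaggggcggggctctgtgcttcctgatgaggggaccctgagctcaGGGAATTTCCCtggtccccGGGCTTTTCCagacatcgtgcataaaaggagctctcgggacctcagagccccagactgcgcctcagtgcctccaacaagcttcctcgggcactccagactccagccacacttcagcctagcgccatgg
Cxcl1, chr5:90890995-90891294, plus strand: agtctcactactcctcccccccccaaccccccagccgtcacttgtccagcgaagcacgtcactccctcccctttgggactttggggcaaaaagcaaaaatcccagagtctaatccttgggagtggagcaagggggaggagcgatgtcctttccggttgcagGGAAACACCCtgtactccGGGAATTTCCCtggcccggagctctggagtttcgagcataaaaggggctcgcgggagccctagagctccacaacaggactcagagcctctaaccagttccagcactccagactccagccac
Gbp2, chr3:142620413-142620712, plus strand: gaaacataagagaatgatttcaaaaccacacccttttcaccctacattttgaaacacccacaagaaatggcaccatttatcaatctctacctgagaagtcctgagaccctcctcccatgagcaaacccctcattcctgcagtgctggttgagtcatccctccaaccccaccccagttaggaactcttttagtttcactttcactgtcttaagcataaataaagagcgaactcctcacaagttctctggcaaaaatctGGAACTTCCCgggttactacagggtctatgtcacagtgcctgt
The promoters of Cxcl2 and Cxcl1 hold 3 matches each, counting both strands, and those of Il6 and Gbp2 hold 1 each. The match of Il6 starts at position -44 from the start of the gene. In the windows of Icam1 and Saa3, whose response differences were -3.48 and -3.67, these letters were not found. Over genes, this motif was present in 6.31% of 27025 promoters in the table and in 7.02% of 10051 with a tested gene. It was present in 21 of 143 promoters (14.7%) of the genes with a wild-type rise and a lower response difference, and in 11 of 136 (8.09%) of those with a wild-type fall and a higher one. TGANTCA, a motif of the AP-1 type, was present in 6.29% of promoters of tested genes, in 24 of the 143 (16.8%) and in 3 of the 136 (2.21%). TTCNNNGAA, of the STAT type, was present in 8.13%, 8.39% and 6.62% of the same sets. A match is a description of the letters, not of binding, and the shares were not tested.

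The guanylate-binding proteins (Gbp), GTPases of cell-autonomous defence best known as interferon-induced genes, had the list with the most negative median. Of 16 listed Gbp and immunity-related GTPase genes 9 were tested, 5 had a lower response difference and 0 a higher one (median -2.69). The 5 called genes were all Gbp genes, and the 4 tested immunity-related GTPases were not called, with differences of -0.44 to -0.01. Gbp3 read 51.3 and 48.8 in stimulated and 33.7 and 18.9 in unstimulated kinase-dead cells, against 736.7 and 687.2 in stimulated and 15.9 and 19.3 in unstimulated wild-type cells. Gbp6 read 22.9 and 8.3 in stimulated and 10 and 10.9 in unstimulated kinase-dead cells, against 233.8 and 284.6 in stimulated and 4.8 and 1.9 in unstimulated wild-type cells. For both genes the stimulated wild-type arrays were alone at a high level. The Gbp6 probe set passed the filter through those arrays alone, and its difference was -4.85 to -2.89 under other settings. The differences were -4.28 for Gbp6, -4.02 for Gbp3, -2.91 for Gbp7, -2.80 for Gbp2b and -2.69 for Gbp2, whose promoter is printed above, and all 5 calls held in each of the 12 fits without 1 array. Of these, Gbp7 rose in kinase-dead cells (0.95). Gbp genes are similar in sequence, and their probe sets may read one another. Of 15 other tested interferon-stimulated genes 3 had a lower response difference: the ubiquitin ligase gene Trim21 (-1.45), Xaf1 (-1.22) and Ifi35 (-0.74). The other Trim21 probe set gave -0.24 and the mean of both was not called, and the calls of Xaf1 and Ifi35 were lost in 3 and 6 of 12 fits without 1 array. The interferon regulatory factors, of which 7 were tested, had 0 calls. Tapbp, which helps to load MHC class I, was the 1 called gene of 13 tested in antigen presentation (-0.83), against 3.03% over all genes.

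Acute phase and inflammatory effector genes formed the list with the most calls. Of 25 listed genes 18 were tested, 9 had a lower response difference and 0 a higher one (median -1.02). Saa3, an acute phase apolipoprotein, read 41.3 and 47.3 in stimulated and 30.1 and 9.5 in unstimulated kinase-dead cells, against 971.5 and 718 in stimulated and 19.4 and 31 in unstimulated wild-type cells. The difference was -3.67 ± 0.55 (adjusted p = 0.00082). Lcn2, an iron-scavenging protein, was dim in every group except stimulated wild-type cells (190.2 and 167.5), so that it passed the filter through 2 arrays. The size of its difference, -3.40, rests on signals near the pseudocount and was -3.70 to -2.35 under other settings, and the call was lost in 3 of 12 fits without 1 array (adjusted p up to 0.0767). Steap4, a metalloreductase, rose in both genotypes, by 1.72 in kinase-dead and 4.63 in wild-type cells, and so did Ch25h, which makes 25-hydroxycholesterol, by 1.26 and 3.80 in kinase-dead and wild-type cells. The other Steap4 probe set gave a response difference of 0.12, and the mean of both was not called (-1.39). The metallothionein gene Mt2 read 378.8 and 373.7 in stimulated and 298 and 316.5 in unstimulated kinase-dead cells, against 2625.6 and 2594.8 in stimulated and 299.1 and 381.8 in unstimulated wild-type cells. Unstimulated cells of the genotypes overlapped, and stimulated cells were far apart. Mt2 differed by -2.63 (adjusted p = 1.4e-07), and Mt1, whose second probe set gave -0.21 and no call, by -2.11. The mitochondrial superoxide dismutase gene Sod2 had a difference of -1.85, with a wild-type response of 1.97 and a kinase-dead response of 0.12 that did not pass. The transcription factor gene Cebpd (-1.34) and the pentraxin gene Ptx3 (-1.10) completed the 9. Mt1, Mt2 and Sod2 are also members of the redox and metal stress list, in which 5 of 16 tested genes had a lower response difference.

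Adhesion molecules that hold leukocytes on the vessel wall were called for 3 of 11 tested genes. Icam1 had signals of 103.9 and 94.7 in kinase-dead cells at 4 h and 23.4 and 23.4 unstimulated, against 1705.3 and 1336.8 in wild-type cells at 4 h and 38.2 and 26.2 unstimulated. It rose by 1.77 in kinase-dead and 5.25 in wild-type cells, with a difference of -3.48 ± 0.31 (adjusted p = 4.0e-06). Vcam1 rose by 1.46 in kinase-dead and 3.02 in wild-type cells, and its difference of -1.56 was lost without kinase-dead 4 h replicate 2 (adjusted p = 0.0518), while both other Vcam1 probe sets were called. The selectin gene Selp differed by -2.38 with no detectable kinase-dead response (-0.07). Flt1, a VEGF receptor and the 1 called gene of 5 tested endothelial markers, had a difference of -1.87. Its 3 other probe sets gave -1.98, -0.44 and -0.06 and were not called, and the mean of all gave -1.09 and was called. It read 496.9 and 465.2 in stimulated and 430.1 and 502.4 in unstimulated kinase-dead cells, against 1463.5 and 1398.4 in stimulated and 333.2 and 414.2 in unstimulated wild-type cells. The summed endothelial markers were 668.8 to 707 in stimulated and 614.7 to 651.7 in unstimulated kinase-dead cells, against 1525 to 1632 in stimulated and 557.1 to 569.2 in unstimulated wild-type cells, most of which was Flt1.

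Matrix-degrading enzymes followed the same direction where they were called. Of 19 tested proteases and inhibitors 6 had a lower response difference and 0 a higher one (median -0.18). Mmp10 (stromelysin-2) read 36.2 and 31.1 in stimulated and 16.3 and 20.6 in unstimulated kinase-dead cells, against 662.8 and 518.2 in stimulated and 35.6 and 41.8 in unstimulated wild-type cells. Its difference was -3.02, with a kinase-dead response of 0.66 that did not pass (adjusted p = 0.19). Mmp13, a collagenase, read 20.8 and 23.5 in stimulated and 21.3 and 16 in unstimulated kinase-dead cells, against 1321 and 1202.4 in stimulated and 230.6 and 285.1 in unstimulated wild-type cells. Mmp13 was thus low in kinase-dead cells already without IL-1b, and its response difference of -2.08 came on top of an unstimulated difference of -3.32. Mmp9 differed by -2.33, the aggrecanase gene Adamts4 by -0.92 and the inhibitor gene Timp1 by -0.89. Mmp3 differed by -1.06, a call lost in 5 of 12 fits without 1 array.

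Of 11 tested prostaglandin genes 2 had a lower response difference, 1 a higher one and 8 no call. Ptgs2 (cyclo-oxygenase 2) was at 4111.2 and 4658.7 in stimulated and 2796.6 and 3656.8 in unstimulated kinase-dead cells, against 7446.1 and 7159.8 in stimulated and 5572.6 and 4494.6 in unstimulated wild-type cells. It was high in every group, and its response difference of -0.09 (interval -0.44 to 0.26) was not called. The other Ptgs2 probe set gave -0.57 with no call, and the difference was -0.57 to 0.09 under other settings. Ptges, the inducible synthase of prostaglandin E2, differed by -1.86 and the prostacyclin receptor gene Ptgir by -1.84. Hpgd, the enzyme that inactivates prostaglandins, had the opposite sign (1.53). It read 50.7 and 35.1 in stimulated and 48.3 and 52.3 in unstimulated kinase-dead cells, against 25.1 and 22 in stimulated and 91.9 and 103.7 in unstimulated wild-type cells. The other Ptges probe sets gave -0.93 and -0.02 and their mean with the first was not called, and the call of Ptgir was lost in 6 of 12 fits and that of Hpgd without kinase-dead 4 h replicate 1.

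Immediate early genes had 1 call in 31 tested, near the 3.03% over all genes, and 10 of the 31 rose in wild-type cells. The called gene was the nuclear receptor gene Nr4a3 (-1.78), whose other probe set gave 0.93 with no call, and the mean of its probe sets was not called (-0.42). Fos had a difference of 0.93 that did not pass (adjusted p = 0.25), with a call at 1.59 without wild-type unstimulated replicate 1. Of 16 tested survival genes 1 was called, against 3.03% over all genes: the death receptor gene Fas. It read 1038.5 and 946.5 in stimulated and 678 and 622.1 in unstimulated kinase-dead cells, against 2189.5 and 2020.9 in stimulated and 375.9 and 390.7 in unstimulated wild-type cells. Fas was therefore higher in kinase-dead cells without stimulation and lower after it, and the difference in response was -1.83 (adjusted p = 4.1e-06). Ier3, an early survival gene, rose by 1.29 in kinase-dead and 1.74 in wild-type cells, and its response difference of -0.46 was not called. Of 14 tested genes of STAT3 signalling, the oncostatin M receptor gene Osmr (-1.36) and the kinase gene Jak2 (-1.16) were called, and neither was called with the mean of its probe sets. Hk2, the first enzyme of glycolysis, differed by -1.21.

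**Figure D3:**
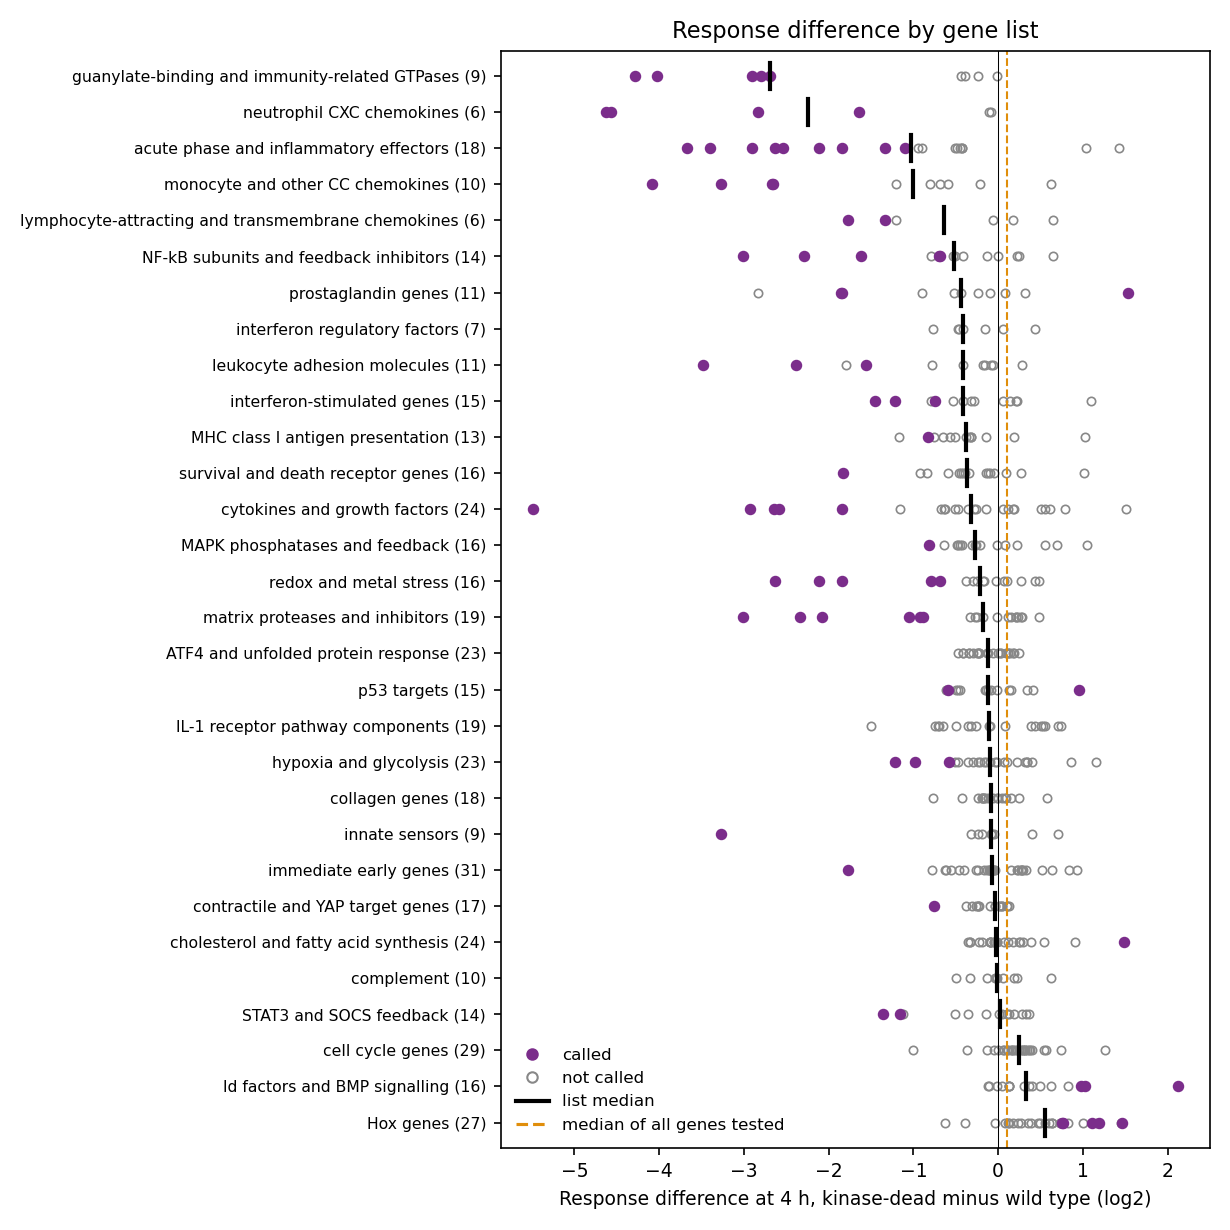
Response difference at 4 h (kinase-dead minus wild type, log2) of each tested member of 30 gene lists, with the number tested in brackets, filled points for called genes, black bars for list medians and a dashed line for the median of all 12456 genes (0.10). Guanylate-binding proteins and CXC chemokines lie furthest to the left, and Hox genes have the highest median (0.55).

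A higher response difference was mostly a fall in wild-type cells that was not called in kinase-dead cells. Of 16 tested Id and BMP genes 3 had a higher response difference and 0 a lower one (median 0.34). Id4, which blocks transcription factors of the helix-loop-helix class, read 626.9 and 652.4 in kinase-dead cells at 4 h and 778 and 761.6 unstimulated, against 91.8 and 127.9 in wild-type cells at 4 h and 540.1 and 665 unstimulated. Only the stimulated wild-type arrays were low, and the difference was 2.12 ± 0.19 (adjusted p = 5.2e-06). Bmp4, a growth factor that induces Id genes, read 449 and 476.5 in stimulated and 584 and 661.6 in unstimulated kinase-dead cells, against 71.2 and 71.8 in stimulated and 206.8 and 209.3 in unstimulated wild-type cells. It was higher in kinase-dead cells in both states, and the wild-type fall of 1.44 on the log2 scale stood against a kinase-dead response of -0.42 that did not pass. The difference of 1.02 was called (adjusted p = 0.0017). Id2 differed by 0.98 with a wild-type response of -0.75, and was not called with its most variable probe set.

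Hox genes, which encode the position of cells along the body axis, had the highest median of the 30 lists shown in the plot of response differences by list (0.55, against 0.10 over all genes). Of 34 listed genes 27 were tested, 5 had a higher response difference and 0 a lower one, and 12 fell in wild-type cells. Hoxa3 read 840.8 and 841 in stimulated and 838.2 and 675.1 in unstimulated kinase-dead cells, against 92.7 and 90 in stimulated and 244.5 and 232.1 in unstimulated wild-type cells. Its response difference was 1.47 (adjusted p = 0.00019), a second probe set gave 1.48 with a call and another 0.07 without one. Hoxa10 had the reverse starting levels, 304.5 and 230.2 in unstimulated kinase-dead cells against 720.4 and 857.1 in unstimulated wild-type cells, and also differed by 1.11. Hoxa5 (1.19) and Hoxc4 (0.75) lost the call in 2 and 6 of 12 fits without 1 array, and Hoxc4 also with arrays centred on their medians. Hoxd8 differed by 0.76 and was not called with its most variable probe set.

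**Figure D4:**
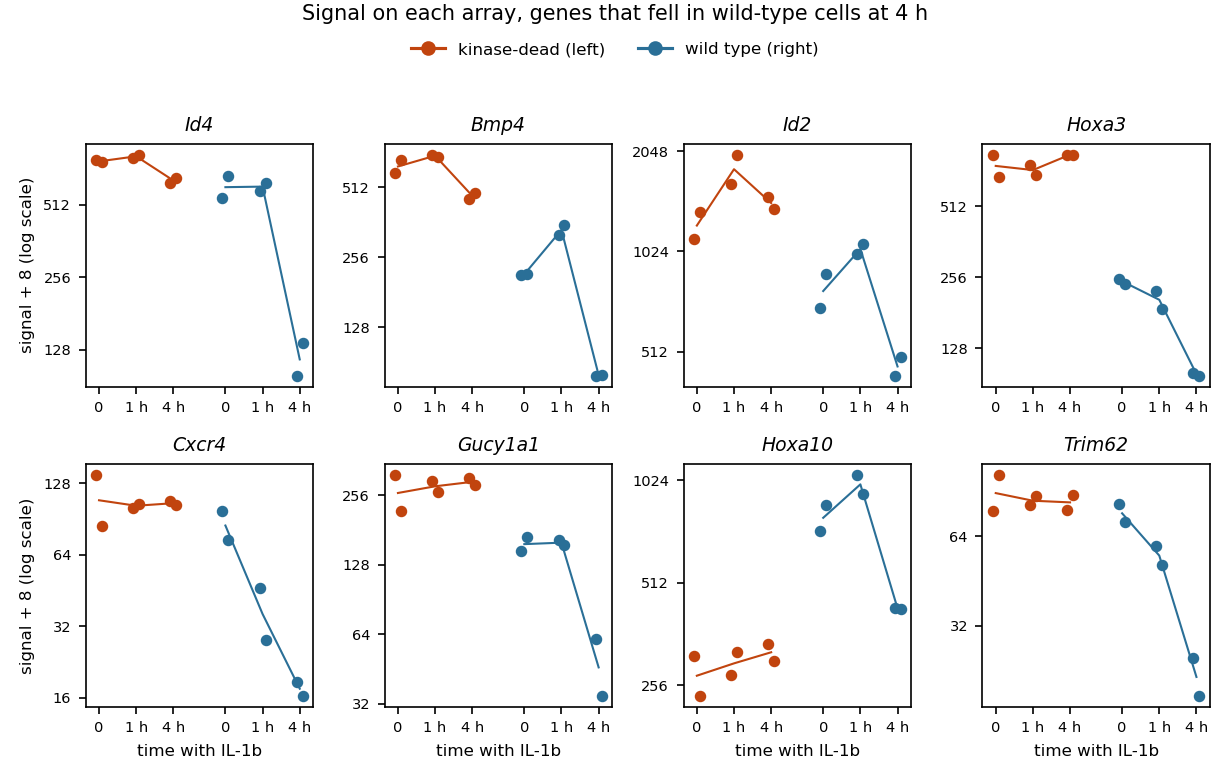
Signal + 8 on each array (log axis) for 8 genes that fell in wild-type cells at 4 h, unstimulated (0) and after 1 h and 4 h of IL-1b, kinase-dead cells at the left of each panel and wild-type cells at the right, with lines through the group means of log2 values (n = 2 arrays a group). The wild-type arrays at 4 h are the lowest of the wild-type arrays in every panel, and the kinase-dead arrays change less.

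Outside the lists, Cxcr4, the receptor of the chemokine CXCL12, read 99.9 and 95.2 in stimulated and 130.8 and 76.9 in unstimulated kinase-dead cells, against 10.7 and 8.3 in stimulated and 89.7 and 65.9 in unstimulated wild-type cells. Its response difference was 2.24 (adjusted p = 0.0034) and 1.36 at the smallest under other settings. Gucy1a1, a subunit of the nitric oxide receptor guanylate cyclase, differed by 1.93 and was not called with the mean of its probe sets. The most positive difference was that of Rab11fip4 (3.09), whose signals did not exceed 37.5 on these 8 arrays and whose call was lost without kinase-dead unstimulated replicate 2 or kinase-dead 4 h replicate 2. Cdh15 (M-cadherin) was 1 of 2 genes with a higher response difference through a kinase-dead rise. It read 41.9 and 45.6 in stimulated and 5.3 and 3.6 in unstimulated kinase-dead cells, against 32.9 and 24.2 in stimulated and 32.1 and 26.4 in unstimulated wild-type cells. Its kinase-dead response of 2.06 thus brought it near the wild-type level, and the difference of 2.09 lost its call in 4 of 12 fits without 1 array. Among the most negative genes outside the lists was U90926, at 3.8 and 1.7 in stimulated and 8.9 and 4.6 in unstimulated kinase-dead cells, against 496.8 and 452.4 in stimulated and 76.2 and 57.4 in unstimulated wild-type cells. Gch1, the first enzyme of tetrahydrobiopterin synthesis, differed by -3.14, and was not called with the mean of its probe sets. The Gch1 probe set passed the filter through wild-type arrays alone.

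The response difference at 4 h was compared with that at 1 h, which was called for 61 genes (0.490%), 18 of them higher (0.145%) and 43 lower (0.345%). At 1 h the kinase-dead response was called for 407 genes (3.27%), 193 higher (1.55%) and 214 lower (1.72%), and the wild-type response for 930 (7.47%), 363 higher (2.91%) and 567 lower (4.55%). The change between the times, which uses no unstimulated array, was called for 443 genes (3.56%), 232 of them higher (1.86%) and 211 lower (1.69%) at 4 h. This count was 274 to 292 without any 1 of the kinase-dead 4 h, kinase-dead 1 h or wild-type 1 h arrays. For one set of genes the gap between genotypes was wide at 1 h and narrower at 4 h. Cxcl1 read 73.8 and 36.7 in kinase-dead and 5944.9 and 6227.6 in wild-type cells at 1 h, and 855.4 and 720.3 in kinase-dead and 6313.7 and 5983.7 in wild-type cells at 4 h. Wild-type signals were thus alike at both times, and kinase-dead signals were higher at 4 h than at 1 h. The difference was -5.34 at 1 h and -1.64 at 4 h, a change of 3.70 ± 0.35 (adjusted p = 9.2e-06). Ccl2 read 107.3 and 116.2 in kinase-dead cells and 3521.2 and 4214 in wild-type cells at 1 h, with differences of -3.66 at 1 h and -0.81 at 4 h. The same order held for Cxcl2 (-7.15 and -4.63), Ccl7 (-2.70 and -0.21) and Nfkbiz (-2.95 and -0.68), and the change was called for each of them. These 5 genes and Ccl20 were the 6 with the largest kinase-dead responses at 4 h among genes that rose at least 2-fold in wild-type cells, a choice that favours a narrowing gap.

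For Tnfaip3 and Irf1 the gap was also narrower at 4 h, and wild-type signals were lower at 4 h than at 1 h. Tnfaip3 read 88.9 and 90.6 in kinase-dead and 1620.7 and 1866.8 in wild-type cells at 1 h, and at 4 h 118.1 and 132.1 in kinase-dead and 561.6 and 564.2 in wild-type cells. The difference was -4.35 at 1 h and -2.29 at 4 h (change 2.06, adjusted p = 1.3e-05). Irf1, a transcription factor of the interferon system, read 45 and 72.6 in kinase-dead and 555.8 and 654.1 in wild-type cells at 1 h, and at 4 h 91.7 and 123.6 in kinase-dead and 102.7 and 133.7 in wild-type cells. The stimulated genotypes overlapped at 4 h, where the response difference of -0.48 was not called, against -3.57 at 1 h. For a further set the difference was not called at 1 h and was called at 4 h. Saa3 had differences of 0.27 at 1 h and -3.67 at 4 h, Gbp6 of -0.11 and -4.28, Lcn2 of 0.39 and -3.40 and Cxcl3 of -0.80 and -4.57, and for each of these the change between the times was called. Il6 had a gap at both times, -2.10 at 1 h and -5.49 at 4 h, and its change of -3.39 was called (adjusted p = 5.0e-05).

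**Figure D5:**
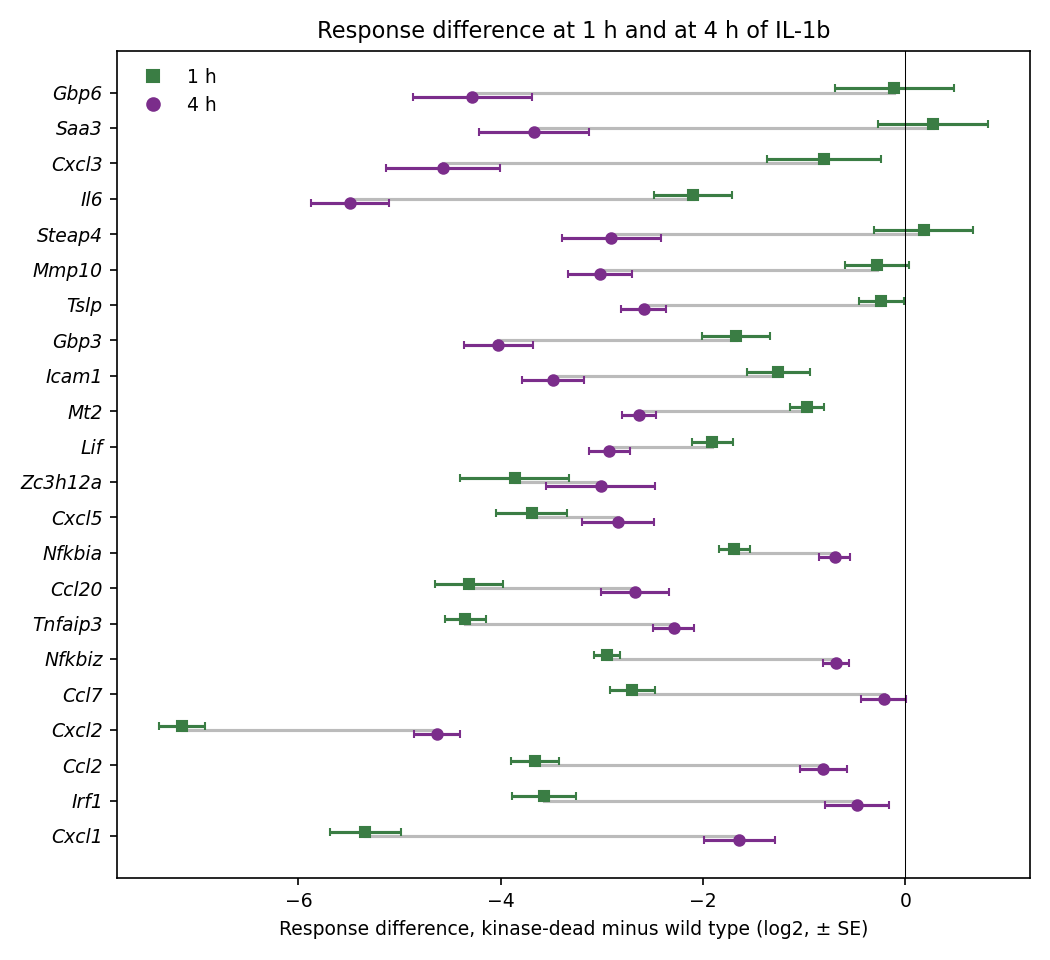
Response difference (kinase-dead minus wild type, log2) at 1 h (squares) and 4 h (circles) of IL-1b for 22 genes, with standard errors from the fit of 12 arrays as bars, ordered by the change between the times. Gbp6, Saa3 and Il6 are further from 0 at 4 h, and Cxcl1, Irf1 and Ccl2 are closer to 0 at 4 h.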

How the data were processed

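RNA (RNeasy, NuGEN Ovation labelling, per the labels' protocols) was measured on 12 Affymetrix Mouse Genome 430 2.0 arrays, 2 in each of 6 groups. The deposited values are MAS5 signals, linear intensity values for each probe set, per the submitters' processing notes; in the values, each array's mean after trimming 2% at each end is 150. The table has 45101 probe sets, of which 34945 carry 1 gene symbol in the platform annotation and 932 carry several. Names were updated by gene identifier (34741 matched) to RefSeq of GRCm38.p6.

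Signals were used as log2(signal + 8), where 8 is close to the 25th percentile (7.9); on this scale changes of dim genes are understated. Probe sets entered if 2 or more arrays reached the overall median signal of 25.5, and each gene took its brightest one (12456 genes). The 6 group means were fitted to all arrays with limma 3.58.1 in R 4.3.3 (moderated two-sided tests, eBayes with trend, 6 residual degrees of freedom, Benjamini-Hochberg over all genes; called means adjusted p under 0.05). The fit was tried on simulated data for the response difference at 4 h (12456 genes, 200 changed). It recovered 37% of changes of 1 and 69% of changes of 2 on the log2 scale. Of 109 calls 3 were unchanged genes, and 0 genes were called when none was changed. The simulated noise was normal, independent between genes and arrays and equal in spread over groups, without shifts of whole arrays. These rates therefore do not cover such shifts. Figures used matplotlib 3.10.9 in Python 3.11.15.

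The comparisons, members, 37 gene lists (675 entries, 615 on the array, 536 tested) and the rule for named genes were chosen with earlier results of these data known. The rule takes the 20 most negative and 15 most positive called genes, up to 6 called members of a list, up to 5 of each pattern of calls, the 6 largest kinase-dead responses among wild-type changes of at least 2-fold, 5 of each direction between 4 h and 1 h, and 15 fixed genes; the text names a subset of these 98, and list members beside them chosen after their values were seen. Of 92 called named genes, 45 had another tested probe set, which was called in the same direction for 12 and in the opposite one for 0.

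Replicate numbers did not pair the samples: correlations of deviations from group means between same-numbered arrays were -0.0509 to 0.0990 over 15 pairs of groups. Alternatives were the pseudocount, filter, normalization, variance model, arrays in the fit, choice of probe set, the replicate block and leaving out each array.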

Additional observations from a re-analysis of the deposited data

Results flagged for a closer look

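The interaction test found 377 genes whose response to 4 h of IL-1b differed between kinase-dead and wild-type cells. For 443 genes the difference between the genotypes itself differed between 4 h and 1 h of IL-1b.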

How the results depend on the processing

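All counts are of called genes. Without a trend in the variance model the response difference at 4 h had 156, the kinase-dead response 22 and the change against 1 h 172. With the most variable probe set per gene the response difference had 246 and the wild-type response 999. The kinase-dead response had 49 with no filter and 40 with the 8 arrays alone, which gave 258 for the response difference. Leaving out 1 array gave 216 to 719 for the response difference (main 377), 28 to 316 for the kinase-dead response (77), 962 to 1553 for the wild-type response (1501), 1857 to 3213 for the genotype difference with IL-1b (2866), 1061 to 1994 for that without stimulation (1786) and 274 to 630 for the change against 1 h (443). The counts that moved by over 1.5 times came, for the kinase-dead response, from each array but kinase-dead unstimulated replicate 1 and the wild-type 4 h arrays; for the wild-type response from wild-type 4 h replicate 2; for the genotype differences from the kinase-dead arrays of the same state. Where a group kept 1 array, that array was assumed to vary like the others. Array median centring gave higher and lower calls of 115 and 264 for the response difference (main 181 and 196), 52 and 9 for the kinase-dead response (55 and 22), 805 and 491 for the wild-type response (581 and 920), 1208 and 1452 for the genotype difference with IL-1b (1716 and 1150) and 179 and 251 for the change against 1 h (232 and 211). With the replicate block, where the numbers pair no samples, the counts were 369 for the response difference, of which 358 were shared with the main fit, and 87, 1483, 2828, 1740 and 430 for the other comparisons in the order above. With the most variable probe set Ifi35 and Thbs1 turned to 0.26 and 0.65 (main -0.74 and -0.75). The cause was not tested. Of 92 called named genes, 57 kept the call without any 1 array, 39 under all 12 other settings and 35 under all.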

Other observations

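Programmes that fibroblasts run beside inflammation were set against the share of calls in the response difference at 4 h over all genes, 3.03%. In lists of 10 to 29 genes that share amounts to at most about 1 call, so 0 calls do not set a list apart. Collagen genes had 0 of 18 tested (median -0.09), genes of the ATF4 and unfolded protein response 0 of 23 (median -0.12), complement genes 0 of 10 (median -0.02) and cell cycle genes 0 of 29 (median 0.25, against 0.10 over all genes). Of 24 genes of cholesterol and fatty acid synthesis 1 was called, Acaca, and its call was lost in 9 of 12 fits without 1 array. Of 23 genes of hypoxia and glycolysis 3 had a lower response difference, Hk2, Ndrg1 and the vasodilator gene Adm, and the calls of Ndrg1 and Adm were lost in 6 and 10 of 12 fits without 1 array. Of 15 p53 target genes Mdm2 was lower (-0.59) and Sesn1 higher (0.96), and neither was called with its most variable probe set.

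The MAPK feedback genes had 1 call in 16 tested, against 3.03% over all genes: Errfi1, an inhibitor of the EGF receptor. It read 1622.9 and 1975.7 in stimulated and 1152.3 and 1391.8 in unstimulated kinase-dead cells, against 7911.4 and 7046.8 in stimulated and 2976.3 and 3016.5 in unstimulated wild-type cells. Errfi1 rose in both genotypes, by 0.50 in kinase-dead and 1.31 in wild-type cells, and its response difference was -0.82. The other Errfi1 probe set gave a larger difference of -1.68, which was called. Spry2, another feedback gene, rose by 0.85 in kinase-dead and 0.63 in wild-type cells, and its response difference of 0.22 was not called.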
